A study of Homo sapiens with 6 samples.

Results

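LINC RNAs are long intergenic noncoding RNAs that carry the systematic symbol LINC with a number, given to long noncoding genes that have no better-known name. In RNA sequencing of D283 Med, a cell line established from a childhood tumour of the cerebellum, medulloblastoma, 803 rows of the deposited expression table had a symbol made only of LINC and digits. Of these, 116 were expressed, meaning that their mean over all 6 libraries lay at least 1 above the lowest value of the table on its log2-like scale, which stands for 27.6 normalised reads. The table has 31785 rows, of which 13558 met the same level and were tested. The level over all libraries chose the members, so levels are described and only the difference between the groups was tested.

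The study set 3 WT libraries of D283 Med against 3 libraries of the same line labelled as knockdown of MSI1, and asks what lowering it does to expression. Both groups share the line, its growth medium and the extraction of total RNA. Neither the means of knockdown, nor a control construct in WT, nor clonal origin, nor separate culture of the libraries is given in the labels, so each p-value measures the spread between these libraries only, which may be technical. The columns used as WT carry a heading that no label explains and were assigned by elimination.

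Long noncoding RNAs are mostly made by RNA polymerase II, spliced and polyadenylated like messenger RNAs, but are not known to be translated into long proteins. Some act on the transcription of nearby genes, some bind proteins or microRNAs elsewhere in the cell, and for many no function is known. Musashi-1, the protein encoded by MSI1, is active in neural stem cells and binds RNA at short motifs with a UAG core, and most of its described targets are messenger RNAs.

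For 8 of the 9 LINC RNAs that passed the test described below, a 30-base stretch of the longest GENCODE 29 transcript is printed. It runs 5′ to 3′ on the transcript and holds the letters of the Musashi-1 core. The stretch is the first with the most TAG triplets in 30 bases, and later stretches may hold as many. TAG, the DNA spelling of UAG, is in capitals. A match describes letters and is not a binding site. Of the 5 that rose in the libraries labelled knockdown, 4 are:
LINC01053: taaaggaatcatcttgTAGaaaactcaTAG
LINC00907: taatgtactccaggtggcTAGTAGtgaTAG
LINC01122: tTAGctgggcaTAGtggcacgtacctgTAG
LINC00662: agggtgaaacactatttTAGTAGaatcTAG

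The 4 that fell are:
LINC02351: tgagctcatttcctgcatgttTAGttcTAG
LINC00689: gtgtggctcattcTAGgtttgactcctTAG
LINC00346: aaccTAGaatcctgcTAGgaatcaaacTAG
LINC00641: gtgtctttgaactgTAGtctgTAGtccTAG

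TAG triplets, counted on the transcript strand, had a median frequency of 9.10 per kb over the 114 members found in GENCODE 29. Over the longest transcripts of 11764 tested protein-coding genes the median was 8.73 per kb. It was 11.7 for the 5 LINC RNAs that rose, 11.5 for the 4 that fell and 8.86 for the 105 that did not pass, with ranges of 10.2 to 16.3 for rises and 4.27 to 14.6 for falls. For the longer motif GTAG, the medians were 3.26 per kb for rises, 1.76 for falls and 1.87 for those that did not pass. The median GC content of the same transcripts was 42.0% for rises, 49.2% for falls and 46.6% for those that did not pass. These differences, and the part of GC content in the motif frequencies, were not tested. LINC00907 held the most TAG triplets of the 9, with 16.3 per kb, and LINC00689 the fewest, with 4.27. Across the 114 members, TAG frequency and the difference between groups had a Pearson r of 0.05 and a Spearman rho of 0.03, a description over genes that share the same 6 libraries.

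MSI1, the labelled target, had 1586, 1572 and 1378 normalised reads in WT 1, 2 and 3, while knockdown 1, 2 and 3 had 1385, 1197 and 1281. The groups overlapped, since knockdown 1 lay above WT 3, and the difference was −0.21 (SE 0.12, limma adjusted p = 0.304). The groups are therefore called by their labels throughout. The WT libraries held 17299671 to 38790342 reads and those labelled knockdown 18895997 to 24442276. Of the markers of this tumour, OTX2 (19886 to 34344 normalised reads) and MYC (14128 to 24285) were high in every library, and BARHL1 and LMX1A reached at most 3.07. Of 12 tested markers of this tumour, UNCX rose (1.52, limma adjusted p = 0.00672) and NPR3 fell (−0.76, limma adjusted p = 0.0437), beside 4.1% of all rows called.

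WT 3 stood apart from the other WT libraries in some of these markers. NEUROD1 had 3340, 2804 and 974 normalised reads in WT 1, 2 and 3, IMPG2 had 14226, 11547 and 3216, and NRL had 786, 1034 and 297. In the libraries labelled knockdown, NEUROD1 had 2581 to 3589 and IMPG2 7881 to 9936, both above WT 3. Without WT 3, 5 of the 9 LINC calls described below were kept and LINC01053, LINC02351, LINC00346 and LINC00641 were lost.

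Most markers of other cell types were low. The 4 immune markers in the table summed to 13.2 to 76.8 normalised reads in WT and 26.3 to 39.0 in the libraries labelled knockdown. MAG and MBP, which define oligodendrocytes, reached at most 7.68. The part of these markers in the LINC results was not tested. In bulk RNA, fewer cells of a type and less RNA per cell cannot be told apart.

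Few LINC genes were expressed in D283 Med. Of the 687 LINC rows under the limit, 405 had at most 10 reads over all 6 libraries and 150 had a read in every library. The numbers of LINC rows with at least 1 read were 431, 527 and 575 in WT 1, 2 and 3, with 430, 438 and 439 for knockdown 1, 2 and 3, and WT 2 and WT 3 were also the deepest libraries. Just inside the limit lay LINC00499, LINC02367 and LINC00648, each 1.01 above the lowest value. Just outside lay LINC02293 at 0.99, and LINC01759 and LINC01836 at 0.98.

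The 116 members together took a small share of every library. It was 0.0961%, 0.110% and 0.123% of the reads in WT 1, 2 and 3, and knockdown 1, 2 and 3 gave 0.101%, 0.116% and 0.105%, all within the WT range. Member means ran from 29.6 to 2778 normalised reads with a median of 91.2, against a median of 667 over all rows tested. There were 63 members under 100 normalised reads, 39 from 100 to under 500, and 14 at 500 or more.

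LINC02154 had the highest mean of the members. This gene lies on chromosome X at 13266048 to 13303452, and it had 2038, 4230 and 1630 normalised reads in WT 1, 2 and 3, against 3075, 2598 and 3098 for knockdown 1, 2 and 3. WT 2 was the highest library and WT 3 the lowest, so the libraries labelled knockdown lay between them. The difference was 0.26 (SE 0.27, limma adjusted p = 0.626).

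Divided by exon length, which puts genes of different size side by side, LINC02154 again came first with 1784 normalised reads per kb. LINC01467 (662 per kb), LINC02351 (396, on a gene model of 289 bases), LINC01551 (376) and LINC00592 (362) came next. The RefSeq starts of LINC02351 lie outside this GENCODE model, so its value per kb depends on the annotation used. The median over the 114 members with a gene model was 39.9 per kb. In reads not divided by length, the order after LINC02154 was LINC00662, LINC00665, LINC01551, LINC00205, LINC00294, LINC01467, LINC00963, LINC01278 and LINC00667. LINC00662 is taken up below as 1 of those that rose.

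The other abundant members did not pass the test. LINC00665 had 1546, 1285 and 1745 normalised reads in WT and 1655, 1553 and 1549 in the libraries labelled knockdown, with overlapping groups and a difference of 0.06 (SE 0.13, limma adjusted p = 0.822). LINC01278 had 675, 657 and 676 in WT and 704, 721 and 696 in the libraries labelled knockdown, which did not overlap but differed by only 0.07 (SE 0.11, limma adjusted p = 0.759). The differences of LINC01551, LINC00205, LINC00963, LINC01467 and LINC00667 were negative, from −0.18 to −0.45, with limma adjusted p from 0.119 to 0.439.

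Between the groups, 5 LINC RNAs rose and 4 fell. LINC02327, LINC01053, LINC00907, LINC01122 and LINC00662 rose by 1.54-fold to 4.67-fold in the libraries labelled knockdown. LINC02351, LINC00689, LINC00346 and LINC00641 fell by 1.75-fold to 3.95-fold. The largest fold on each side belongs to a member, LINC01053 or LINC00346, whose mean met the level limit in only 1 group, and without them the folds reach 3.70 for rises and 2.83 for falls. A fold is the ratio of mean normalised reads, while each difference (knockdown minus WT) and its SE are on the deposited log2-like scale, which understates changes of weakly expressed genes.

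The 9 calls are 7.76% of the 116 members, and the same limma test called 4.1% of all 13558 rows. The 9 include LINC01053 and LINC00346, which met the level limit in only 1 group. That limit was applied in the same way to all rows. By direction, 4.31% of the members rose against 1.78% of all rows, and 3.45% fell against 2.32%. Among 762 other long noncoding RNA genes 2.62% were called, and among the 11764 protein-coding genes 4.33%. Whether these shares differ was not tested. Groups did not overlap for 40 members (34.5%), against 27.8% of all rows. Of these, 22 were higher in the libraries labelled knockdown (19%, against 14.1% of all rows) and 18 lower (15.5%, against 13.6%). An unadjusted limma p under 0.05 was reached by 28.4% of the members and 22% of all rows.

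The members as a set did not move one way. Differences above 0 were found for 56 members (48.3%, against 51% of all rows) and below 0 for 60, with a median of −0.01 and middle values from −0.21 to 0.22 (quartiles), beside a median of 0.01 over all rows tested. The median size of a difference, whatever its sign, was 0.22 in the members and 0.17 over all rows. A difference of at least 0.5 in size was seen in 14 members (12.1%) and in 8.01% of all rows. For 41 members the 95% interval of the difference lay within 0.5 of 0, so larger differences lie outside their intervals. The intervals of the others reached farther from 0, being shifted, wider or both.

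**Figure D1:**
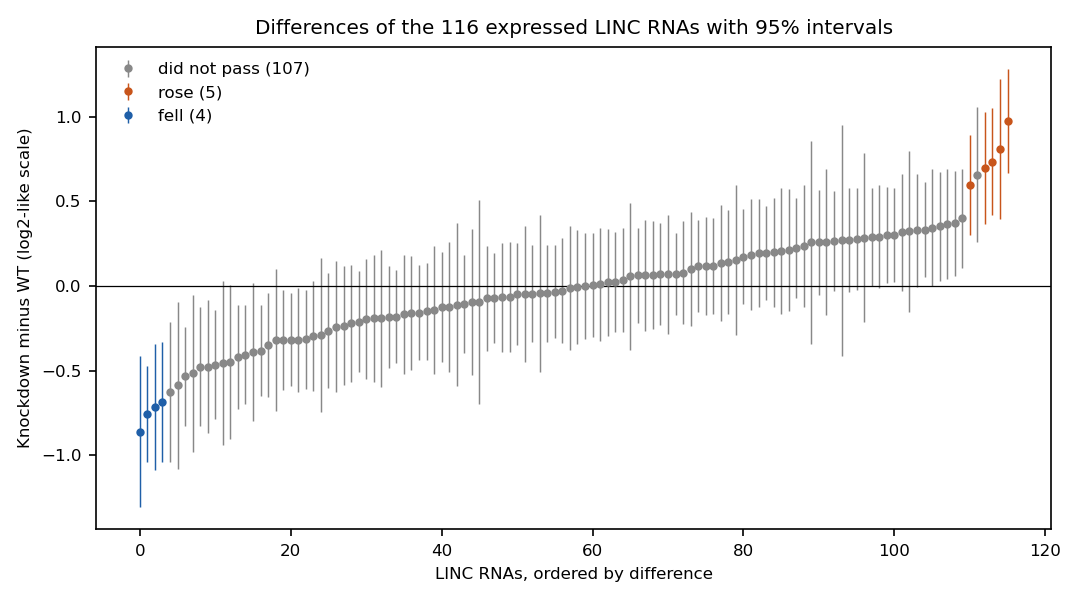
Difference between groups (knockdown minus WT, log2-like scale, vertical axis) for the 116 expressed LINC RNAs, ordered by size along the horizontal axis, with 95% intervals from limma as bars. The 5 that rose stand at the right in orange and the 4 that fell at the left in blue, and the 107 in grey did not pass.

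**Figure D2:**
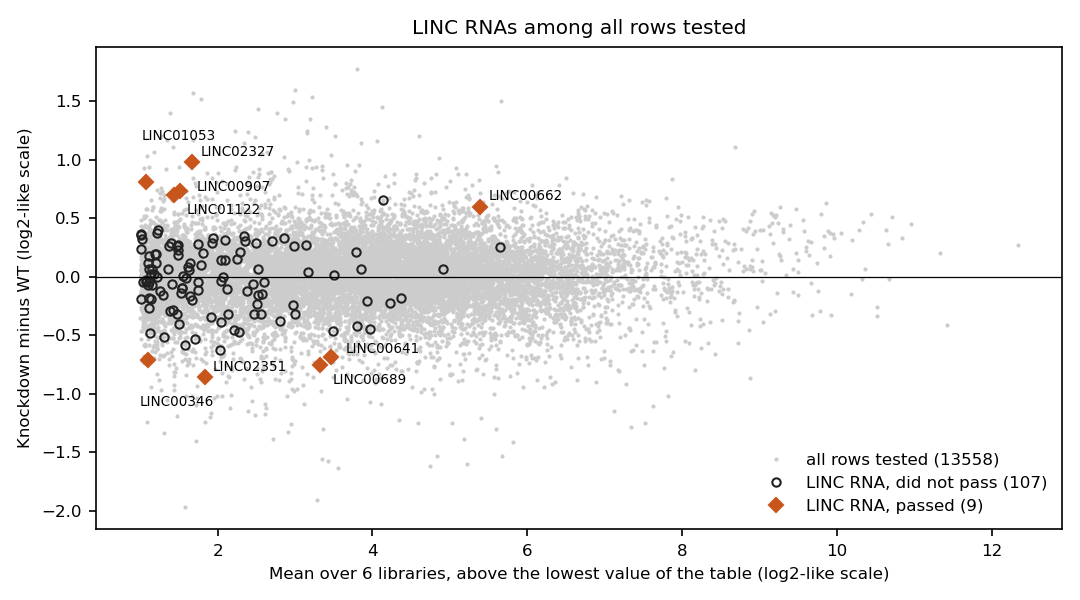
Mean level above the lowest value of the table (horizontal axis, log2-like scale) and difference between groups (vertical axis, log2-like scale) of all 13558 rows tested (grey points), of LINC RNAs that did not pass (107 open circles) and of those that passed (9 diamonds). Most LINC RNAs lie at the low end of the level axis, and LINC00662 is the only passing member near level 5.

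LINC02327 rose with the smallest adjusted p of the members. It lies on chromosome 14 (plus strand, 28830244 to 28968400) on GRCh38. It had 33.7, 29.6 and 56.8 normalised reads in WT 1, 2 and 3, against 153, 141 and 150 for knockdown 1, 2 and 3. All 3 libraries labelled knockdown lay above all WT libraries, in a narrow band. The rise was 3.70-fold, from 40.0 ± 14.7 to 148 ± 6.29 (SD, n = 3), with a difference of 0.97 (SE 0.14, limma adjusted p = 0.00799).

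LINC01053 rose from a very low level, and its coding neighbour rose too. The gene is on chromosome 13 (plus strand, 25181441 to 25189760) and is annotated as antisense. It had 24.9, 13.9 and 3.07 normalised reads in WT and 68.8, 86.8 and 39.7 in the libraries labelled knockdown, without overlap. The rise was 4.67-fold, with a difference of 0.81 (SE 0.19, limma adjusted p = 0.0421). Its WT mean alone lies under the level limit, so it entered the test through the libraries in which it was high, and its lowest library held 4 reads. Its call was lost with voom on the recovered reads (limma adjusted p = 0.051).

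LINC00907 and LINC01122 both rose from about the same level. LINC00907, on chromosome 18 (plus strand, 42159283 to 42691422), had 49.8, 40.4 and 23.8 normalised reads in WT and 98.2, 126 and 103 in the libraries labelled knockdown. Every library labelled knockdown lay above every WT library, and the rise was 2.87-fold with a difference of 0.74 (SE 0.14, limma adjusted p = 0.0261). LINC01122, on chromosome 2 (plus strand, 58427799 to 59063766), lies between the coding genes FANCL and BCL11A. It had 33.7, 27.1 and 37.6 normalised reads in WT and 65.8, 117 and 109 in the libraries labelled knockdown. Knockdown 1 was the lowest of its group but above all WT libraries, and the rise was 2.97-fold with a difference of 0.70 (SE 0.15, limma adjusted p = 0.0339).

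LINC00662 was the abundant member among those that rose. It is reported in many tumours as a noncoding RNA linked to growth, and lies on chromosome 19 (minus strand, 27684580 to 27793940). It had 1549, 1861 and 1946 normalised reads in WT 1, 2 and 3, against 2374, 3047 and 2852 for knockdown 1, 2 and 3, with no overlap. The rise was 1.54-fold, from 1785 ± 209 to 2758 ± 346 (SD, n = 3), with a difference of 0.60 (SE 0.13, limma adjusted p = 0.0383). Its rise is based on 1058 to 2950 reads per library, the most of the 9 RNAs.

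LINC00689 had the smallest adjusted p among those that fell. It lies on chromosome 7 (plus strand, 159006522 to 159030195), overlapping VIPR2, a neuropeptide receptor, on the opposite strand, and has been described as coding for a microprotein. It had 590, 551 and 695 normalised reads in WT and 310, 311 and 342 in the libraries labelled knockdown, which lay close together below all WT libraries. The fall was 1.91-fold, from 612 ± 74.9 to 321 ± 18.6 (SD, n = 3), with a difference of −0.76 (SE 0.13, limma adjusted p = 0.0148). VIPR2 had a difference of −0.24 (limma adjusted p = 0.308), and no source used here says whether counting used strand, so reads of the overlap cannot be assigned to either gene.

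LINC00641, on chromosome 14 (minus strand, 21200079 to 21206900), fell as well. It had 640, 597 and 764 normalised reads in WT and 334, 492 and 319 in the libraries labelled knockdown. Knockdown 2 was the highest of its group, still below the lowest WT library. The fall was 1.75-fold with a difference of −0.68 (SE 0.16, limma adjusted p = 0.0437). HNRNPC, a nuclear protein that packages new transcripts, lies 2236 bases away and had a difference of 0.29 (limma adjusted p = 0.49). NDRG2, which starts 136 kb from the start of LINC00641 and is named after its value was seen, rose 1.72-fold (0.64, limma adjusted p = 0.0437).

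LINC02351 and LINC00346 fell from lower levels. LINC02351, on chromosome 15 (minus strand, 98324273 to 98327494), had 122, 168 and 219 normalised reads in WT and 64.8, 27.7 and 86.9 in the libraries labelled knockdown. The groups did not overlap, and the fall was 2.83-fold with a difference of −0.86 (SE 0.20, limma adjusted p = 0.0441). LINC00346, a gene of 1 exon on chromosome 13 (minus strand, 110863987 to 110870251), had 41.0, 60.5 and 87.5 in WT and 21.3, 20.1 and 6.44 in the libraries labelled knockdown. Again no library overlapped, and the fall was 3.95-fold with a difference of −0.71 (SE 0.17, limma adjusted p = 0.0446). Its mean in the libraries labelled knockdown lies under the level limit, which 9 members crossed in only 1 group, LINC01053 and LINC00346 being the called ones.

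**Figure D3:**
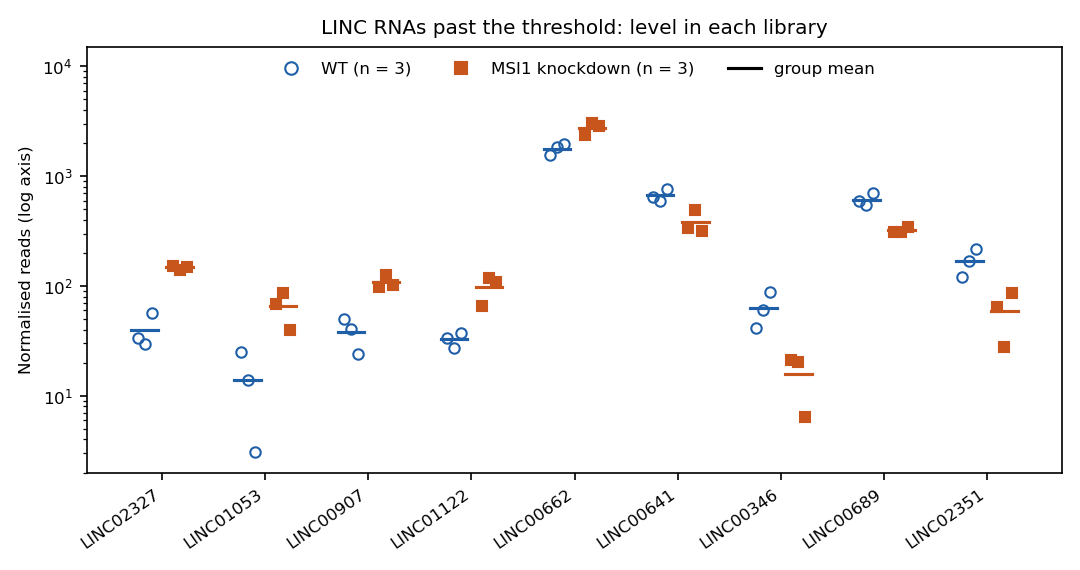
Normalised reads (log axis) in each library for the 9 LINC RNAs that passed, with open circles for WT (n = 3), filled squares for libraries labelled knockdown (n = 3) and lines for group means. In none of the 9 do the groups overlap, and LINC00662 has by far the highest level.

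The calls depended on single libraries. Leaving out knockdown 1 ended all 9 calls (limma adjusted p from 0.0552 to 0.178), although the differences, 0.70 to 0.96 for rises and −0.91 to −0.62 for falls, stayed about as large, and left 56 of all rows called, against 556 with all libraries. Without WT 2, knockdown 2 or knockdown 3, calls among the members numbered 2, 2 and 1. With 3 libraries on each side, the smallest p of an exact permutation test is 0.1, so it cannot pass the threshold.

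Further members had separate groups without passing the test, 31 in all. Separate groups, called or not, were found for 34.5% of the members and 27.8% of all rows. LINC01234 is reported in several carcinomas as a growth-linked RNA. It had 141, 105 and 117 normalised reads in WT and 55.7, 70.4 and 53.7 in the libraries labelled knockdown. Its difference was −0.53 (SE 0.13, limma adjusted p = 0.0509). LINC00294 had 546, 788 and 688 in WT and 848, 1408 and 1147 in the libraries labelled knockdown, and a difference of 0.66 (SE 0.18, limma adjusted p = 0.072). In both, all libraries of 1 group lay on 1 side of the other group. LINC00294 overlaps TCP11L1 on the same strand (0.44, limma adjusted p = 0.143) and CSTF3 on the opposite strand (0.29, limma adjusted p = 0.21). DEPDC7, 42567 bases away and named after its value was seen, rose 1.97-fold (0.86, limma adjusted p = 0.0229).

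Other members with separate groups differed less. LINC01503, LINC00592, LINC00667, LINC02035 and LINC00909 had differences from −0.48 to −0.38, with limma adjusted p from 0.1 to 0.12. SEMA5B, 16666 bases from LINC02035 and named after its value was seen, fell 2.70-fold (−0.95, limma adjusted p = 0.0283). On the other side, LINC01933, LINC01508, LINC00648 and LINC01224 had differences of 0.33 to 0.40, with limma adjusted p from 0.118 to 0.179. LINC00667 was the best expressed of these members, with 801, 687 and 860 normalised reads in WT and 563, 648 and 472 in the libraries labelled knockdown.

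Members were read against their place in the genome. Of the 114 members with a GENCODE 29 match, 93 overlapped no protein-coding gene (5 rose, 3 fell), 12 overlapped one only on the opposite strand (1 fell) and 9 overlapped one on the same strand (none called by limma or by voom, 1 at an unadjusted p under 0.05). Of 13 members that start within 2 kb of the start of a coding gene on the opposite strand, limma and voom called none, and 2 had an unadjusted p under 0.05. Of 11 members with 1 exon, LINC00346 alone was called. With 7.76% of the members and 4.1% of all rows called, counts of 0 or 1 in sets this small say nothing about a class.

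Other members lie on chromosome 14 close to LINC02327, and are named for their place after their values were seen. LINC01551 had 1072, 1193 and 1073 normalised reads in WT and 953, 858 and 1104 in the libraries labelled knockdown, with overlap and a difference of −0.18 (SE 0.12, limma adjusted p = 0.426). LINC02282 had a difference of −0.04 (limma adjusted p = 0.881). LINC02326, which reaches over LINC02327 on the opposite strand, had 214, 211 and 243 in WT and 266, 326 and 297 in the libraries labelled knockdown, without overlap and with a difference of 0.30 (limma adjusted p = 0.199). As the use of strand is not stated, reads of these overlapping genes cannot be told apart.

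At LINC01053, the gene beside it rose as well. AMER2, a membrane protein that binds APC, is transcribed on the minus strand 9153 bases away, so that the genes point away from each other. It had 400, 218 and 101 normalised reads in WT and 645, 980 and 521 in the libraries labelled knockdown, without overlap. The rise was 2.99-fold with a difference of 1.34 (SE 0.31, limma adjusted p = 0.0401). WT 3 was the lowest WT library for both genes and knockdown 2 the highest library. None of the other tested rows whose gene starts within 1 Mb was called.

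Because both genes moved, their promoters are printed, from 250 bases before to 50 after each RefSeq start (GRCh38.p14), 5′ to 3′ on the gene's strand, with CG dinucleotides in capitals. LINC01053 is chr13:25181082-25181381 on the plus strand and AMER2 is chr13:25172239-25172538 on the minus strand, the first of its RefSeq starts.
LINC01053: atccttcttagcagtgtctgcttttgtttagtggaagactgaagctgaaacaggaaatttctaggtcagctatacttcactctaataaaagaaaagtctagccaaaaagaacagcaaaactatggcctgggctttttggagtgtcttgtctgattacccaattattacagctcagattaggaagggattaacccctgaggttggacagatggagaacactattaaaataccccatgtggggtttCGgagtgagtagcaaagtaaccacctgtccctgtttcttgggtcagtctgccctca
AMER2: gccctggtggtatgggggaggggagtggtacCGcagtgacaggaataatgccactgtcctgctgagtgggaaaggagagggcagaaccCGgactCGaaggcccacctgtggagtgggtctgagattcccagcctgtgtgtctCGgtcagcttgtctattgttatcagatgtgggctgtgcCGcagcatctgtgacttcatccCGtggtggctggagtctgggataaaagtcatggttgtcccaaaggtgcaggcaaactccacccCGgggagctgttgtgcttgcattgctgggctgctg

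CG dinucleotides numbered 1 in the LINC01053 window and 7 in that of AMER2. The median was 8 over 86 promoter windows of 75 members with a RefSeq match and 14 over all 35116 windows. Over the 8 windows of called members it was 3.5. These 8 windows are not 8 genes, since LINC00641 and LINC02351 have more than 1 each. LINC02327, LINC00907 and LINC00346 have none. The GC box (GGGCGG, both strands) stood in 41.9% of the members' windows and in 45.0% of all. CCAAT stood in 45.3% and 34.6%, TATAAA in 15.1% and 11.5%, and CACGTG in 11.6% and 7.26%. These are counts of letters only.

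The coding genes on either side of LINC01122 are FANCL, a Fanconi anaemia repair protein, and BCL11A, a zinc finger factor of blood and brain. FANCL had 404, 582 and 413 normalised reads in WT and 605, 755 and 641 in the libraries labelled knockdown, above WT but with a limma adjusted p of 0.123 (difference 0.45). BCL11A, 1386754 bases away, had 177, 189 and 184 in WT and 300, 373 and 328 in the libraries labelled knockdown, without overlap. It rose 1.82-fold, a difference of 0.62 (SE 0.13, limma adjusted p = 0.0285).

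**Figure D4:**
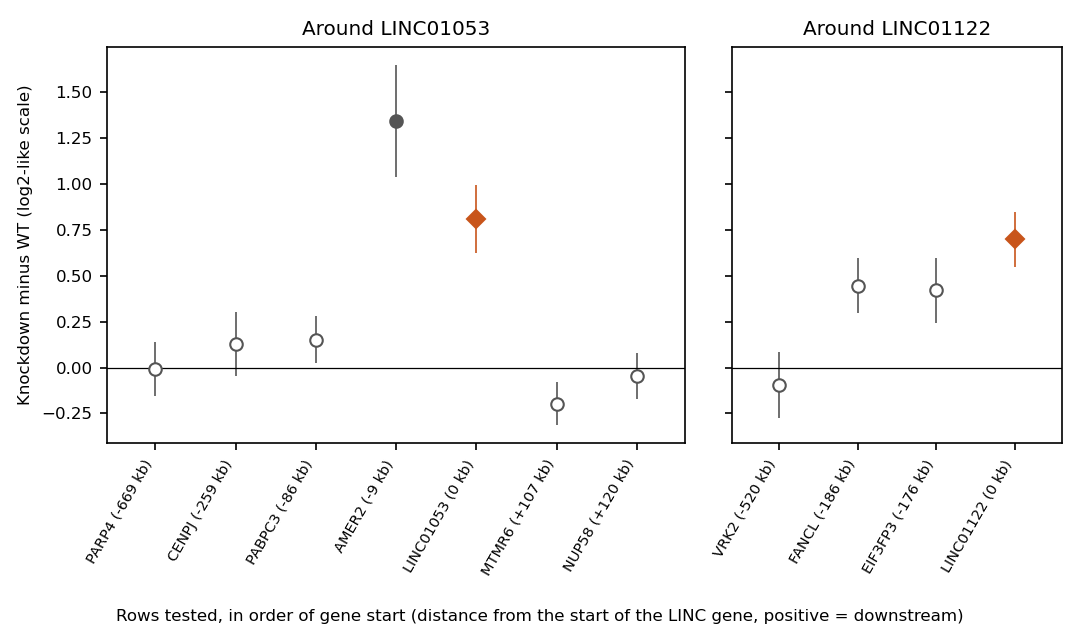
Difference between groups (knockdown minus WT, log2-like scale, vertical axis, bars are SE) of the tested rows whose gene starts within 1 Mb of LINC01053 or LINC01122, in order of gene start with the distance from the LINC gene in kb. Filled symbols passed the test and diamonds are LINC RNAs. AMER2 and LINC01053 both rose, while the 3 other rows shown for LINC01122 did not pass (BCL11A lies farther away and is not drawn).

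Across all members, the nearest tested coding gene shared the sign of the difference for 61 of 114. It did so for 2 of the 5 that rose and for 2 of the 4 that fell. Over 114 pairs the differences had a Pearson r of 0.27 and a Spearman rho of 0.22, and over the 69 pairs with a gap of at most 50 kb they had an r of 0.37 and a rho of 0.32. These describe genes that share libraries and, where they overlap, may share reads.

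**Figure D5:**
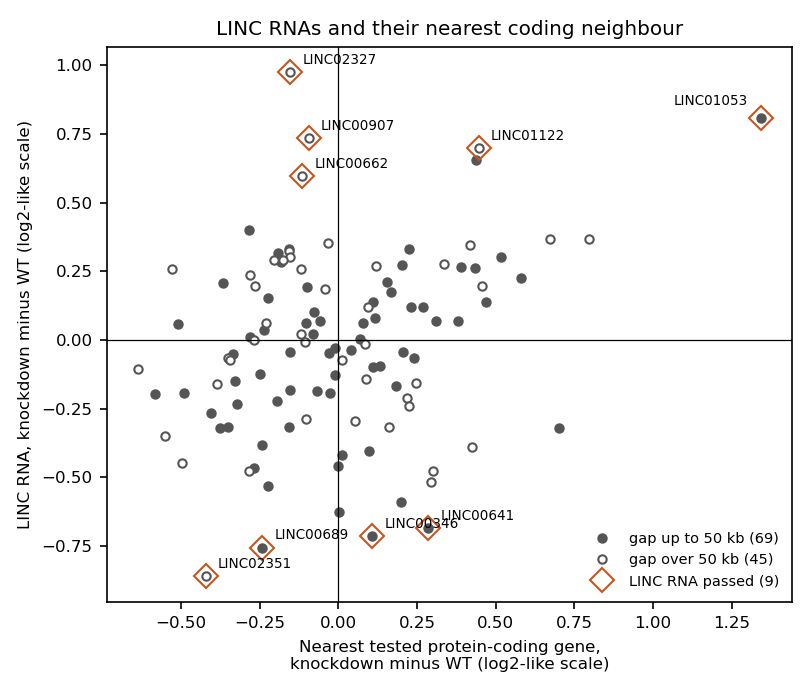
Difference of each LINC RNA (vertical axis) against that of its nearest tested protein-coding gene (horizontal axis), both knockdown minus WT on the log2-like scale, for 114 members. Filled circles have a gap of at most 50 kb (69), open circles a larger one, and diamonds mark the 9 that passed. LINC01053 with AMER2 is the point farthest to the right.

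On chromosome 17, 3 of the 4 members were lower in the libraries labelled knockdown, with a median difference of −0.25. All 788 tested rows of that chromosome had a median of −0.24, and 91 of them fell while 4 rose. LINC00674, which lies 55066 bases from KPNA2, a nuclear import protein, had 124, 137 and 147 normalised reads in WT and 95.1, 67.9 and 109 in the libraries labelled knockdown. The groups did not overlap, and the difference was −0.35 (SE 0.14, limma adjusted p = 0.179), beside −0.55 for KPNA2.

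Members with a described role were grouped by it. Calls in these groups stand beside 4.1% of all rows called. Of 16 tested members with a literature of their own, LINC00662 rose, LINC00346 fell, and the median difference was 0.01. Of 3 tested members described as sources of microproteins, LINC00689 fell, LINC00467 had a difference of 0.26 (limma adjusted p = 0.275) and LINC00674 is given above. LINC00599, the host of a brain microRNA, had 239, 223 and 170 normalised reads in WT and 217, 265 and 190 in the libraries labelled knockdown, with overlap and a difference of 0.06 (SE 0.15, limma adjusted p = 0.847). LINC01578, also called CHASERR, lies upstream of the chromatin remodeller CHD2 and had a difference of 0.01 (SE 0.15, limma adjusted p = 0.978).

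Of 5 tested members listed as neighbours of genes of neural development, LINC01122 rose, beside 1.78% of all rows that rose. LINC01122 is not close to either coding neighbour, with FANCL 186427 bases and BCL11A 1386754 bases away. LINC00634 had a difference of 0.22 (limma adjusted p = 0.354) and LINC01012 one of −0.07 (limma adjusted p = 0.775). LINC01551 and LINC00599 are given above.

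Well-known noncoding RNAs outside the LINC names were set beside the members. None of 21 tested was called by limma or voom, and 2 had an unadjusted limma p under 0.05. Over all rows, 4.1% were called by limma and 22% had an unadjusted limma p under 0.05. NEAT1, the scaffold of paraspeckles, had 5545, 4592 and 8352 normalised reads in WT and 2042, 4883 and 2989 in the libraries labelled knockdown, with overlap and a difference of −0.92 (SE 0.29, limma adjusted p = 0.1). SNHG1, a snoRNA host, had 4570, 4181 and 6734 in WT and 7821, 7621 and 9076 in the libraries labelled knockdown, with no overlap and a difference of 0.68 (SE 0.17, limma adjusted p = 0.0572).

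Genes that make or destroy such RNAs were also read against all rows. The shares over all rows are 4.1% called and 22% at an unadjusted limma p under 0.05. No member of the lists of the nuclear exosome and nuclear decay (27 tested, median 0.07), of cytoplasmic decay (27 tested, median 0.01) or of protein partners of long noncoding RNAs (23 tested, median 0.04) was called by limma or voom. At an unadjusted limma p under 0.05 there were 5, 1 and 4 of them. Of 30 tested genes of transcript cleavage and the Integrator complex, which ends many noncoding transcripts, INTS2 fell by 0.50 (limma adjusted p = 0.0484). Of 11 tested messenger RNAs reported as bound by Musashi-1, EIF4EBP2 (0.78) and JAG1 (0.83) rose, with limma adjusted p of 0.0213 and 0.0411, beside 1.78% of all rows that rose. CDK6 (−0.56, limma adjusted p = 0.0805) and APC (−0.40, limma adjusted p = 0.0961) were lower without overlap but did not pass. NOTCH1 (0.44, limma adjusted p = 0.083) and MYC (0.48, limma adjusted p = 0.0976) were higher without overlap and did not pass either.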

How the data were processed

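RNA of 3 WT libraries and 3 libraries labelled MSI1 knockdown was sequenced. STAR, DESeq, Trim Galore, MultiQC, FastQC and CASAVA 1.8.2 were used on GRCh38, per the submitters' processing notes. For the counter, annotation and strand use, nothing is stated in the labels. The authors deposited log2-like values after variance stabilisation, as the file's values show. The lowest value, 5.79, stands for 0 reads. Inverting the function (offset 55.2) gave normalised reads, and 100% of them became whole reads (tolerance 0.01), which gave the depth.

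Differences were tested on the deposited values with limma 3.58.1 in R 4.3.3 (empirical Bayes with trend, two-sided, no covariate), with Benjamini-Hochberg adjustment over all 13558 rows and a threshold of 0.05. The code was checked on simulated data. Positions and transcripts are GENCODE 29 (114 of 116 matched by symbol), and promoters are RefSeq GRCh38.p14.

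Named were all called members, the 10 largest rises and 10 largest falls without overlap, the 10 highest means, list members, the rows at the limit and the nearest coding genes. Some of these items are not reported here. Members and lists were chosen with earlier results of these data known. Alternatives were filters at 0.5, at 2 and none, quantile and median scaling, no trend, robust variance, library weights, voom, log2 of reads with a pseudocount of 0.5, a replicate block, and each library left out.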

Additional observations from a re-analysis of the deposited data

How the results depend on the processing

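The members' 5 rises and 4 falls stayed 5 and 4 under quantile normalisation, median centring and robust variance, and were 5 and 5 with the filter at 0.5 or without the mean-variance trend. With the filter at 2 above the lowest value, 48 members were tested and 1 rose and 2 fell, 3 calls in all, because 6 of the 9 were no longer tested. Without any filter, 803 LINC rows were tested and 9 rose. On log2 of normalised reads 2 fell. With library weights, 1213 of all rows were called against 556. Leaving out 1 library at a time gave 0 to 4 rises, 0 to 3 falls, 0 to 7 of the 9 calls, and 56 to 726 calls over all rows. LINC02327 was called in 15 of 16 alternatives, LINC00689 in 14 of 17, LINC00907 and LINC01122 in 11 of 16, LINC00662 and LINC00641 in 11 of 17, and LINC01053, LINC00346 and LINC02351 in 9 of 16. The call of LINC01053 was lost under voom, and those of LINC01053, LINC00346 and LINC02351 on log2 of normalised reads.

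With the replicate number as a block, 3 members rose and 1 fell, 221 of all rows were called, and of the 9 named calls 3 remained (4 members in all, with LINC00294). The labels state no pairing, and the number of a WT library comes from its unexplained column heading. Deviations of WT and knockdown libraries with the same number correlated with r of −0.0045, −0.25 and 0.0046. No library correlated best with its own number. With 3 libraries in each group, these values cannot exclude a pairing.

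Of the named members that were not called, 6 changed sign, LINC02154 from a difference of 0.26 and the others from differences near 0. LINC01578 was −0.0012 under quantile normalisation, −0.0051 under median centring and −0.012 under voom. LINC00663 was −0.012 under median centring, −0.065 with library weights and −0.023 under voom. LINC00599 was −0.027 with library weights. With 1 library left out, the ranges were −0.12 to 0.075 for LINC01578, −0.066 to 0.085 for LINC00663, −0.039 to 0.14 for LINC00599, −0.27 to 0.095 for LINC00342, −0.014 to 0.65 for LINC02154 and −0.048 to 0.16 for LINC00665. The cause was not tested.

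The lowest count of a member was 4 reads, of LINC01053 in WT 3. Reads of overlapping and antisense genes cannot be told apart here, and 2 members had no gene model.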
